A study of Mus musculus with 12 samples.

Results

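Annexins are a family of genes for proteins that bind acidic phospholipids when calcium rises, and 10 of them were described here across livers and liver tumors by genotype and driver class. The members, chosen by gene symbol, were Anxa1, Anxa2, Anxa3, Anxa4, Anxa5, Anxa6, Anxa7, Anxa9, Anxa11, and Anxa13, which are 10 of the 24421 genes in the count tables. The tables hold 2 further annexin genes, Anxa8 and Anxa10, which are described with the partner genes. Poly(A) RNA had been sequenced from 6 liver tumors and from 6 non-tumoral livers of aged mice (over 18 mo) kept on a standard diet. In p21+/Tert mice the promoter of p21 (Cdkn1a), a cell cycle inhibitor, drives Tert, the catalytic subunit of telomerase, and in p21+/TertCi mice it drives a catalytically inactive TertCi. The p21+/Tert group had 4 livers and 4 tumors, named T-HCA992, T-HCC941, T-HCC662, and T-HCC663 by histology and mouse, and the p21+/TertCi group had 2 livers and 2 tumors, TCi-HCC981 and TCi-HCA984. All of these mice carry a transgene, and no wild-type library was analysed here.

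Driver classes were taken from the mutations that the study gives for each tumor, not from the labels: T-HCC662 and T-HCC663 carry mutated Ctnnb1 (the gene of β-catenin), T-HCC941 carries mutated Egfr and TCi-HCC981 mutated Hras, and T-HCA992 and TCi-HCA984 carry none of these and are called driver-negative. Each class holds 2 tumors, both Ctnnb1-mutated tumors came from p21+/Tert mice, and both driver-negative tumors are adenomas. T-HCC663 carries the name of a carcinoma, but its histological diagnosis in the study is adenoma. Livers are named here by the tumor of the same mouse. Among the p21+/Tert livers, 1 carries an animal number that the study does not list and was taken as the liver of T-HCC662 by elimination. Livers held 14571716 to 23932529 counted reads and tumors 17471387 to 26170661. Tert stood at 10.5 to 17.3 CPM (read counts scaled to a common library size) in livers and at 4.69 to 26.1 CPM in tumors. Annexins took 0.0351% to 0.0567% of the reads in livers and 0.0616% to 0.104% in tumors.

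Most annexins share a conserved core that docks on membranes, and they differ in a variable amino-terminal tail that binds partners such as S100 proteins. They are known for membrane repair, vesicle traffic, the handling of phosphatidylserine on dying cells, and, for Anxa2, the assembly of plasminogen and its activators at the cell surface. In healthy liver, much of the signal of several annexins is known to come from bile duct, endothelial, and immune cells rather than from hepatocytes. Because each library is bulk tissue, fewer cells of a type and less RNA per cell cannot be told apart in any value below.

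Genes near the results are placed here before their levels, with positions from GENCODE on GRCm38. Anxa2 lies on chr9:69453620-69491795 (plus strand), Anxa4 on chr6:86736840-86793584 (minus strand), Anxa5 on chr3:36448923-36475894 (minus strand), and Anxa13 on chr15:58341471-58389244 (minus strand). GENCODE lists Anxa13 as a processed transcript and the other 9 members as protein coding. Exons of Anxa2, Anxa3, Anxa4, Anxa9, and Anxa11 overlap exons of other genes that are not in the count tables (Anxa11os on the opposite strand of Anxa11, for example), and the strand setting of the counting is not given in the sources used here, so reads of such pairs cannot be told apart. RefSeq promoter entries on GRCm38.p6 were held for 7 of the 10 members and not for Anxa3, Anxa6, and Anxa13.

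The stretches upstream of Anxa2 and Anxa4 are shown because both genes rose in tumors, while in the Ctnnb1-mutated tumors Anxa2 lay above and Anxa4 below the other 4 tumors, without passing edgeR's test between these classes. They run 5′ to 3′ on the strand of the gene, are the part of the 250 bases before the RefSeq start that lies outside GENCODE exons, and capitals mark matched motifs. Anxa2 is at chr9:69453433-69453619 (plus strand) and Anxa4 at chr6:86793585-86793834 (minus strand).
Anxa2: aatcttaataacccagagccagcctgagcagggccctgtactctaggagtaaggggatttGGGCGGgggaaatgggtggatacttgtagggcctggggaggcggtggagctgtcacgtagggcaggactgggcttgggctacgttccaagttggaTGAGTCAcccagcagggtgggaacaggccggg
Anxa4: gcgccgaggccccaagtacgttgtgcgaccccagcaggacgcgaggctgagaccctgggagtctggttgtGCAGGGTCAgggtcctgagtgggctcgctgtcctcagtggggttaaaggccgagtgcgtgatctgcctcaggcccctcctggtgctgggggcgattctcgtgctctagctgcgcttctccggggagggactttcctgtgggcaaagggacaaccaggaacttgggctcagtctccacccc

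Letters were searched on both strands of the 250 bases before the start. The Anxa2 window held the AP-1 letters TGANTCA, which 6.75% of all 32851 promoters held, and GGGCGG (a GC box, 32.7% of promoters), which recurred with TATAAA (12.4%) in the exonic part not shown. The Anxa4 window shown held the antioxidant response letters TGACNNNGC in reverse, as 10.2% of promoters did. Another Anxa4 window, at chr6:86775115-86775364, held none of the letters searched and is not shown. The TCF/LEF letters CTTTGAT, through which β-catenin is known to act, were in none of the 10 annexin windows searched and in 3.21% of all promoters. The Anxa5 window held none of the letters searched. These matches describe letters and not binding.

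Anxa2, Anxa4, Anxa5, and Anxa13 rose in tumors. With 6 tumors set against 6 livers and with adjusted p-values from edgeR's quasi-likelihood test (Benjamini-Hochberg over 13822 genes, threshold 0.05), these 4 of 10 annexins passed as higher and 0 as lower, where 6.77% of all genes passed as higher and 3.91% as lower. The median log2 fold change was 0.86 over the 10 annexins and 0.01 over all genes tested. Tumors exceeded the liver of the same mouse in 6 of 6 mice for Anxa2, Anxa4, and Anxa5, a pattern held by 11% of all genes.

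Anxa2, the annexin of plasminogen assembly and actin-rich membranes, had the largest change with non-overlapping groups. Livers ranged from 6.83 to 33.9 CPM (median 19.1) and tumors from 75.4 to 256 CPM (median 118), so the lowest tumor was above the highest liver. The log2 fold change was 2.81 ± 0.44 (SE, n = 6 and 6), a 7.02-fold difference (adjusted p = 0.00235). Within mice the ratio of tumor to liver ran from 2.22-fold in TCi-HCC981 to 36.5-fold in T-HCC662. The widest ratio joined the highest tumor to 1 of the 2 lowest livers.

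Anxa5, which binds phosphatidylserine and whose protein is used to stain apoptotic cells, also kept tumors and livers apart. Livers held 50.9 to 124 CPM (median 81.7) and tumors 153 to 332 CPM (median 189). The log2 fold change was 1.25 ± 0.27 (SE, n = 6 and 6), or 2.38-fold (adjusted p = 0.0120). T-HCA992 was highest, and the ratio within a mouse was smallest in TCi-HCC981 (1.24-fold) and largest in T-HCC662 (4.54-fold). Anxa2 and Anxa5 were the 2 annexins whose groups did not overlap, with tumors above livers as for 2.93% of all genes (2.18% had tumors below livers).

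Anxa4, an annexin of secretory epithelia, had the smallest error of the annexins that rose. Livers spanned 44.6 to 72.7 CPM (median 52.7) and tumors 65.8 to 142 CPM (median 99.5). The log2 fold change was 0.91 ± 0.21 (SE, n = 6 and 6), or 1.88-fold (adjusted p = 0.0152). T-HCC662 lay below the liver of TCi-HCC981, so the groups overlapped, although each tumor exceeded its own liver, by 1.14-fold in T-HCC662 and by 1.67-fold to 2.30-fold in the other 5 mice.

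Anxa13, the annexin best known from the apical membrane of intestinal epithelium, was near the floor of detection in livers and high in a few tumors. Livers held 0.455 to 3.25 CPM, with as few as 6 reads. Among tumors, T-HCC941 held 64.6 CPM and TCi-HCC981 69.3 CPM, TCi-HCA984 held 10.7 CPM, T-HCC663 held 3.86 CPM, T-HCA992 held 1.00 CPM, and T-HCC662 held 0.451 CPM on 10 reads. The 2 tumors with mutated Egfr or Hras were the highest, T-HCA992 lay within the range of livers, and T-HCC662 lay at its lower end. The log2 fold change was 4.03 ± 1.11 (SE, n = 6 and 6), with an adjusted p of 0.035. The call was lost when each mouse was a block (log2 fold change 2.49, adjusted p = 0.248), and without any 1 of the 6 livers, without T-HCC941 (3.49, adjusted p = 0.0781), or without TCi-HCC981 (3.39, adjusted p = 0.0734).

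**Figure D1:**
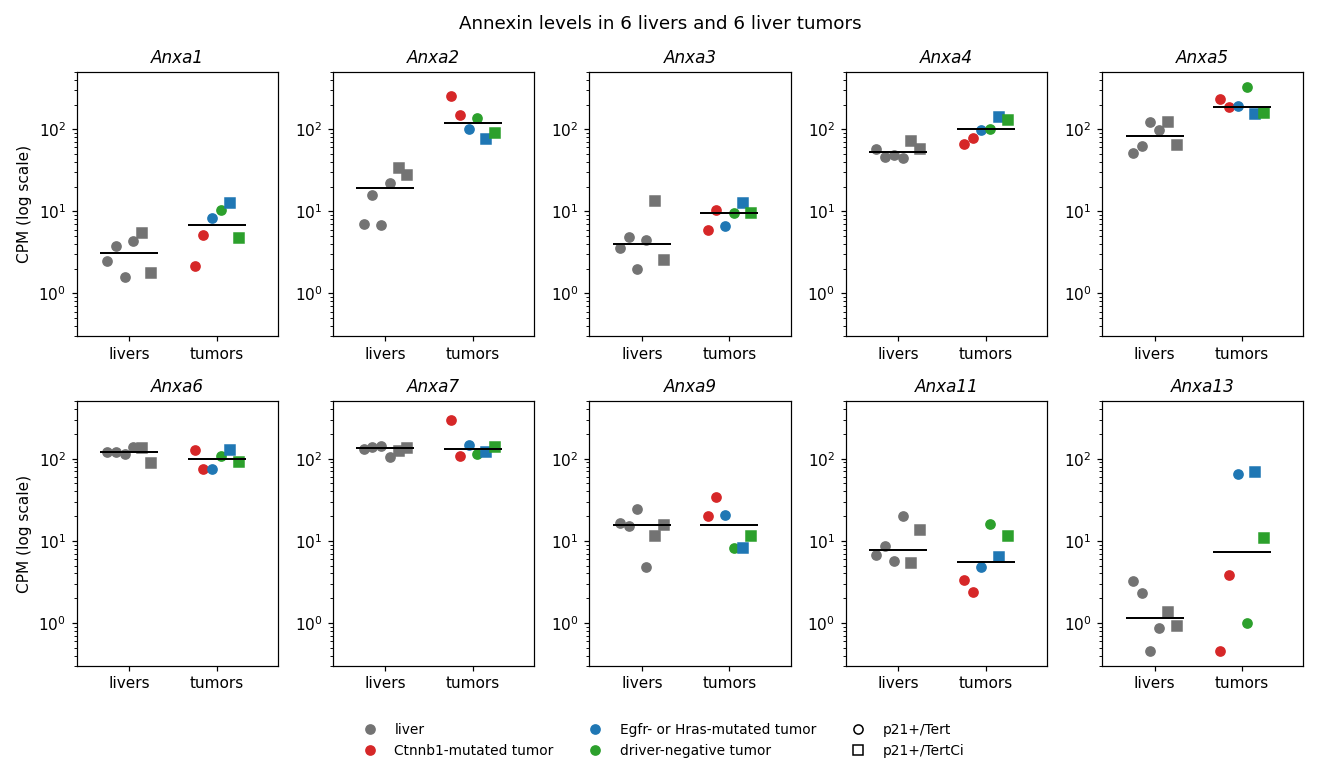
CPM of each annexin on a log axis in 6 livers (grey) and 6 tumors (colored by driver class), with circles for p21+/Tert mice, squares for p21+/TertCi mice, and lines at the medians. Tumors and livers separate for Anxa2 and Anxa5, and Anxa13 reaches 64.6 and 69.3 CPM in the Egfr- and Hras-mutated tumors.

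The other 6 annexins did not pass the test. Anxa1, a glucocorticoid-induced ligand of formyl peptide receptors, held 1.59 to 5.38 CPM in livers and 2.16 to 12.6 CPM in tumors (log2 fold change 1.16 ± 0.43, adjusted p = 0.102). The liver of TCi-HCC981 lay above 3 of the 6 tumors. Its call changed without T-HCC662, the lowest tumor (1.35, adjusted p = 0.0323), in DESeq2 (adjusted p = 0.0453), and blocked over the 5 mice whose numbers match in the labels (1.33, adjusted p = 0.0296).

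Anxa3, known from neutrophil granules, held 1.97 to 13.2 CPM in livers and 5.99 to 12.6 CPM in tumors (log2 fold change 0.82 ± 0.41, adjusted p = 0.229). The liver of TCi-HCC981 alone was above every tumor, while the other 5 livers were below every tumor. That liver also had the highest macrophage or Kupffer cell marker sum (10 genes), 1881 CPM against 175 to 458 CPM in the other 5 livers. Its cholangiocyte (161 CPM), stellate cell or fibroblast (231 CPM), and T cell (9.07 CPM) sums were the highest of the livers as well. For stellate cells and T cells the liver of T-HCA992 came close (225 and 8.91 CPM). Its neutrophil, endothelial, B cell, and hepatocyte sums were not the highest. The part of these cell types in the Anxa3 value was not tested. Without that liver the log2 fold change was 1.37 (adjusted p = 0.0135), and with a block for each mouse it was 1.06 (adjusted p = 0.0385).

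Anxa6, a large annexin with a duplicated core that acts on endosomes, held 87.8 to 138 CPM in livers and 74.9 to 128 CPM in tumors (log2 fold change -0.26, adjusted p = 0.397). Anxa7, first described as synexin in granule fusion, held 106 to 143 CPM in livers and 107 to 147 CPM in 5 tumors, and T-HCC662 stood apart at 299 CPM (log2 fold change 0.24, adjusted p = 0.567). Both genes were abundant in every library, and their groups overlapped.

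Anxa9, an atypical annexin with little calcium binding, held 4.83 to 24.2 CPM in livers and 8.06 to 34.2 CPM in tumors (log2 fold change 0.21, adjusted p = 0.786). Anxa11, which links RNA granules to lysosomes, held 5.42 to 20.02 CPM in livers and 2.37 to 16.2 CPM in tumors (log2 fold change -0.44, adjusted p = 0.609). The liver of T-HCA992 had the lowest Anxa9 and the highest Anxa11 of all livers, and its tumor had the highest Anxa11 of all tumors. Over 12 libraries, the log2 CPM of these genes had a Pearson r of -0.78, a description over libraries that share mice.

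**Figure D2:**
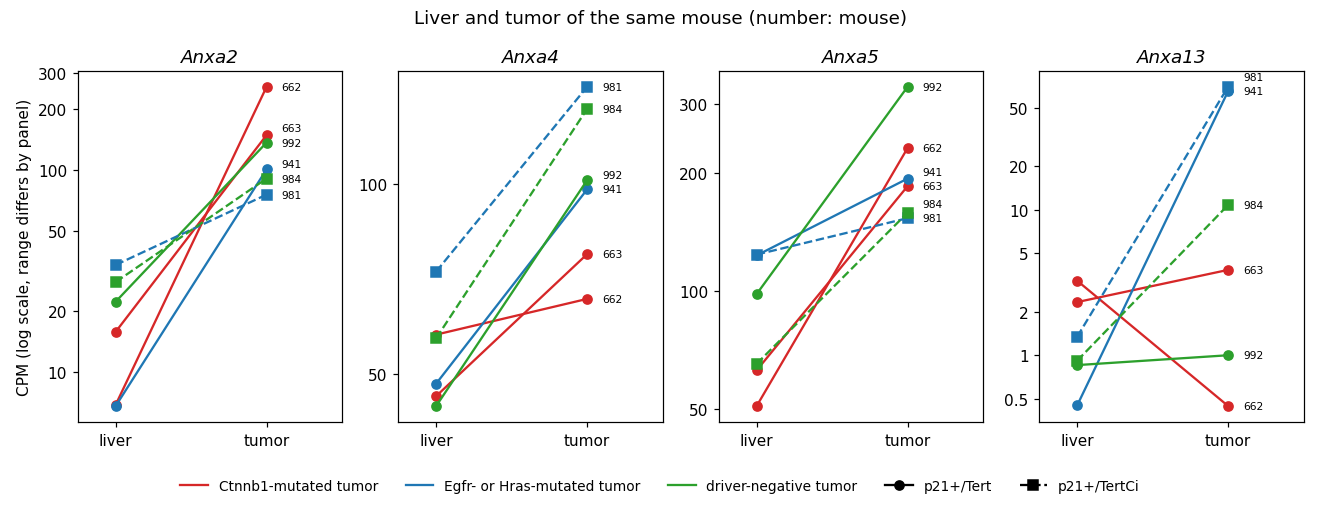
CPM of the 4 annexins that rose, on log axes whose range differs by panel, with a line from the liver to the tumor of each mouse (numbered). Every line rises for Anxa2, Anxa4, and Anxa5, whereas the Anxa13 line of T-HCC662 runs down from 3.25 to 0.451 CPM.

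Scaled to exon length, the annexin signal shifted toward Anxa2. The summed CPM per kb of the 10 annexins was 120.4 to 175 in livers and 217 to 320 in tumors. Anxa5 had the highest mean level per length in both, with 49.2 ± 18.1 CPM per kb in livers and 117.5 ± 37.3 in tumors (SD, n = 6 each). In livers it was followed by Anxa6 (40.9 ± 6.19) and Anxa7 (21.7 ± 2.25), and the levels of Anxa5 and Anxa6 did not differ beyond their spread. In tumors the next was Anxa2 (36.1 ± 17.6), whose spread covered that of Anxa6 (34.4 ± 8.17) and reached that of Anxa7 (25.8 ± 12.1).

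As a share of the summed CPM per kb, Anxa2 went from a median of 3.71% in livers (1.15% to 6.15%) to 11.4% in tumors (7.61% to 21.5%). The share of Anxa6 was 24.6% to 34.4% in livers and 9.44% to 16.5% in tumors. Neither range overlapped, and since shares sum to a whole, a lower share of Anxa6 goes with a CPM that did not pass the test. Anxa13 made up 17.7% of the annexin signal in T-HCC941 and 19.4% in TCi-HCC981.

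**Figure D3:**
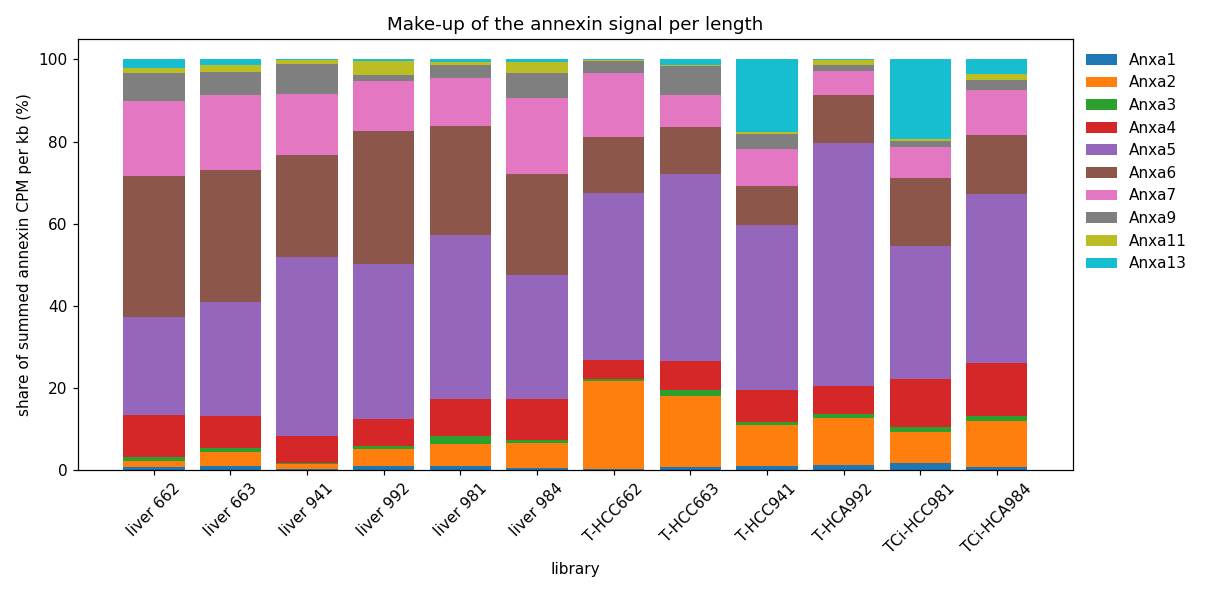
Share of each annexin in the summed annexin CPM per kb of exon, in percent, for each of the 12 libraries. The Anxa2 block is 1.15% to 6.15% in livers and 7.61% to 21.5% in tumors, and Anxa13 is a large block in T-HCC941 and TCi-HCC981.

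Within p21+/Tert mice, Anxa2, Anxa4, and Anxa5 rose. These 3 of 10 annexins passed as higher and 0 as lower, against 4.2% and 2.3% of 15182 genes (6.49% in either direction). Anxa2 went from 6.83 to 22.3 CPM in 4 livers to 100.4 to 256 CPM in 4 tumors, a log2 fold change of 3.61 ± 0.44 (12.2-fold, adjusted p = 0.00217). Anxa5 changed by 1.47 ± 0.33 (adjusted p = 0.0258) and Anxa4 by 0.78 ± 0.18 (adjusted p = 0.0302) on the log2 scale. Anxa13 had a log2 fold change of 3.31 ± 1.38 (adjusted p = 0.18), and without T-HCC941 it was 0.02.

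The calls of Anxa4 and Anxa5 in p21+/Tert mice were lost in some of the alternative fits, and that of Anxa2 was not. Blocked by mouse over 6 mice, Anxa4 had an adjusted p of 0.0549, and over the 5 mice whose numbers match in the labels Anxa5 had 0.0759. Anxa4 lost the call without any 1 of the 4 livers, without T-HCC941, or without T-HCA992 (adjusted p = 0.0614 to 0.0955). Anxa5 lost it without the liver of T-HCC662 (0.0856), the liver of T-HCC663 (0.0850), or T-HCA992 (0.0554). Anxa2 kept the call in all 8 fits without 1 library, with log2 fold changes of 3.29 to 4.02. In the same fits the log2 fold change was 0.68 to 0.88 for Anxa4 and 1.255 to 1.729 for Anxa5. Over all genes these fits called 240 to 1192, against 986 with every library. Whether the lost calls of Anxa4 and Anxa5 go beyond this general change was not tested.

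In p21+/TertCi mice 0 of 10 annexins passed, as did 0 of 15182 genes (0%), while 3 annexins and 1618 genes had an unadjusted p under 0.05 in edgeR's test. DESeq2 passed 375 genes and 1 annexin, Anxa4 (log2 fold change 1.08, adjusted p = 0.00822). Anxa2 went from 27.9 and 33.9 CPM in livers to 75.4 and 90.5 CPM in tumors (log2 fold change 1.41 ± 0.56, adjusted p = 0.423 by edgeR). Anxa4 went from 57.05 and 72.7 CPM to 131 and 142 CPM (1.06 ± 0.26, adjusted p = 0.208). Anxa13, at 0.921 and 1.34 CPM in livers and 10.7 and 69.3 CPM in tumors, had the widest error (5.11 ± 2.10, adjusted p = 0.433). In data simulated from these libraries, edgeR recovered 25 of 100 genes changed 4-fold in this comparison and 79 of 100 in that of p21+/Tert mice.

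The genotypes were then compared directly. The difference between the genotypes in the change from liver to tumor passed for 0 annexins and 0 of 15182 genes (0%), with 1 annexin and 556 genes at an unadjusted p under 0.05 by edgeR and 0 annexins and 10 genes called by DESeq2. The annexin was Anxa2, whose log2 change was smaller in p21+/TertCi mice by 2.20 (log2 difference -2.20, approximate 95% interval -3.56 to -0.85, unadjusted p = 0.00841, adjusted p = 0.9999). By value, the p21+/TertCi livers (27.9 and 33.9 CPM) lay above the 4 p21+/Tert livers. The p21+/TertCi tumors (75.4 and 90.5 CPM) lay below the 4 p21+/Tert tumors. How many genes separate by genotype in this way was not counted. The share of 37.5% of all genes that did not overlap between the 2 Ctnnb1-mutated and the 4 other tumors belongs to another split. It is no baseline for the genotypes. For the difference between the genotypes in the change from liver to tumor, edgeR recovered 3 of 100 genes simulated with a 4-fold change.

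Between livers of the genotypes, 0 annexins and 0 genes (0%) passed, with 1 annexin and 756 genes at an unadjusted p under 0.05 by edgeR and 0 annexins and 42 genes called by DESeq2. The annexin was again Anxa2, higher in p21+/TertCi livers by 1.27 ± 0.47 on the log2 scale (adjusted p = 0.93). In the same comparison 10 of 10 macrophage or Kupffer cell markers (median log2 fold change 1.54) were above 0 and 0 passed, against a median of 0.02 over all genes, and their part in the Anxa2 value was not tested. The macrophage or Kupffer cell sum was 1881 CPM in the liver of TCi-HCC981, which held 33.9 CPM of Anxa2. In the liver of TCi-HCA984 it was 175 CPM, the lowest of all livers, with 27.9 CPM of Anxa2. The p21+/Tert livers had sums of 197 to 458 CPM and at most 22.3 CPM of Anxa2. Between tumors of the genotypes, matched for driver class (T-HCC941 and T-HCA992 against TCi-HCC981 and TCi-HCA984), 0 annexins and 1 of 15182 genes (0.00659%) passed in edgeR's test, with 1 annexin and 1217 genes at an unadjusted p under 0.05, and DESeq2 called 0 annexins and 161 genes. Here Anxa2 was 100.4 and 136 CPM against 75.4 and 90.5 CPM, a log2 difference of -0.50 (p21+/TertCi minus p21+/Tert, approximate 95% interval -1.50 to 0.51). Anxa4, at 97.9 and 101 CPM against 131 and 142 CPM, differed by 0.47 (0.06 to 0.88, adjusted p = 0.619), and relative to their own livers (blocked by mouse) by -0.013. With both Ctnnb1-mutated tumors in p21+/Tert mice, genotype and Ctnnb1 class cannot be told apart in the comparisons that include them.

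**Figure D4:**
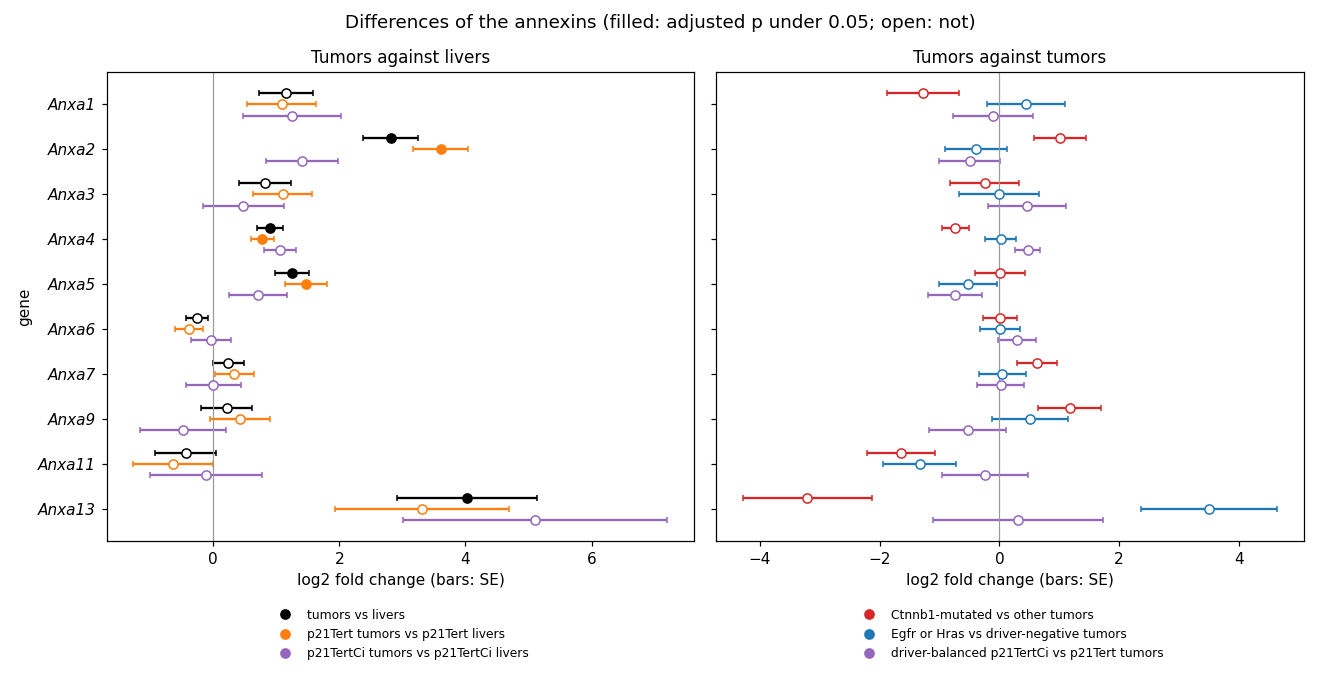
Log2 fold change of each annexin (points) with its SE (bars), for tumors against livers (left) and for tumors against tumors (right); filled points passed an adjusted p of 0.05. Filled points are Anxa2, Anxa4, Anxa5, and Anxa13 for all tumors and Anxa2, Anxa4, and Anxa5 for p21+/Tert mice, and no point is filled on the right.

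Among tumors, the annexins were compared between driver classes. Between Ctnnb1-mutated and other tumors 0 of 10 annexins passed in edgeR's test, where 12.7% of 15182 genes did (6.99% higher and 5.68% lower), while 5 annexins had an unadjusted p under 0.05 (Anxa2, Anxa4, Anxa9, Anxa11, and Anxa13) and 3 passed in DESeq2 (Anxa4, Anxa11, and Anxa13). Over all genes, 4645 of 15182 had an unadjusted p under 0.05 and 3266 passed in DESeq2, so these counts do not set the annexins apart from other genes. Ctnnb1-mutated tumors did not overlap the other 4 for 3 annexins, a pattern held by 37.5% of all genes (18.5% above and 19% below). Anxa2 was above all 4 others (148 and 256 CPM against 75.4 to 136 CPM, log2 fold change 1.01 ± 0.43, adjusted p = 0.143). Anxa4 was below all 4 (65.8 and 77.4 CPM against 97.9 to 142 CPM, -0.73 ± 0.23, adjusted p = 0.059 by edgeR and 0.0170 by DESeq2). Over the 6 tumors the log2 CPM of Anxa2 and Anxa4 had a Pearson r of -0.93, which is a description over libraries that share the class contrast.

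Anxa11 was below all 4 other tumors as well, at 2.37 and 3.29 CPM against 4.81 to 16.2 CPM (log2 fold change -1.64 ± 0.57, adjusted p = 0.0807). Anxa13, at 0.451 and 3.86 CPM against 1.00 to 69.3 CPM, had a log2 fold change of -3.21 ± 1.08 (adjusted p = 0.0730). The adjusted p passed the threshold for Anxa4 without T-HCC941 (0.0384) and for Anxa13 without T-HCA992 (0.0431). Anxa7 passed it without T-HCC663 (log2 fold change 1.20, adjusted p = 0.0274), which leaves T-HCC662 alone in its class.

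Egfr- or Hras-mutated tumors were compared with driver-negative tumors. There 0 annexins and 0 of 15182 genes (0%) passed in edgeR's test, with 1 annexin and 1411 genes at an unadjusted p under 0.05, and DESeq2 called 123 genes and 0 annexins. The annexin was Anxa13, at 64.6 and 69.3 CPM against 1.00 and 10.7 CPM (log2 fold change 3.49 ± 1.14, unadjusted p = 0.0108, adjusted p = 0.501). With 1 library left out, that value for Anxa13 was 2.60 without T-HCA992, 6.03 without TCi-HCA984, and 3.43 to 3.54 without either of the others. Anxa11 went the other way, at 4.81 and 6.32 CPM against 11.3 and 16.2 CPM (-1.33 ± 0.61, adjusted p = 0.537), but relative to their own livers (blocked by mouse) the log2 difference was 0.25.

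Markers of some other cell types moved with these classes, and their part in the annexin values was not tested. The summed CPM of 7 cholangiocyte markers was 68.7 to 161 in livers, 29.6 and 53.8 in Ctnnb1-mutated tumors, and 85.4 to 1096 in the other 4 tumors. Spp1, a secreted phosphoprotein, carried most of the sum in T-HCC941, T-HCA992, and TCi-HCA984 (261 to 1037 CPM), while TCi-HCC981 held 4.16 CPM of Spp1 and 56.4 CPM of Sox9. The defining keratins were low, since Krt19 was at most 2.94 CPM in livers and 1.26 CPM in tumors and Krt7 at most 1.596 and 1.22 CPM. The highest sum was in T-HCA992, which held 1.00 CPM of Anxa13, and TCi-HCC981, with 69.3 CPM of Anxa13, had a sum of 85.4.

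Endothelial markers (6 genes) summed to 50.8 and 95.8 CPM in Ctnnb1-mutated tumors, 134 to 256 CPM in the other tumors, and 53.1 to 165 CPM in livers, and 3 of 6 were lower in Ctnnb1-mutated than in other tumors. Stellate cell or fibroblast markers (7 genes) summed to 23.2 and 66.7 CPM in those tumors, 136 to 334 CPM in the others, and 45.8 to 231 CPM in livers, and 1 of 7 was lower. Hepatocyte markers were lower for 3 of 7, where 5.68% of all genes were lower. Tert, whose reads from the transgene and from the endogenous gene cannot be told apart here, was lower as well (log2 fold change -1.39 ± 0.35, adjusted p = 0.0297). Anxa2 was highest in the 2 tumors with the lowest cholangiocyte, endothelial, and stellate sums of all tumors. The sums of macrophage or Kupffer cell, T cell, neutrophil, and B cell markers overlapped between the classes. Macrophage or Kupffer cell markers summed to 220 and 1042 CPM in Ctnnb1-mutated tumors and 201 to 1354 CPM in the others. T cell markers summed to 5.86 and 19.9 CPM against 2.10 to 26.4 CPM. For all tumors against livers, 1 of 6 endothelial markers (Pecam1) and 0 of 6 cholangiocyte, 0 of 10 macrophage, 0 of 4 neutrophil, 0 of 7 stellate, 0 of 5 T cell, and 0 of 3 B cell markers tested rose. Of 7 hepatocyte markers 0 rose and 1 (Tat) fell, and they summed to 29100 to 53340 CPM in livers and 16460 to 96510 CPM in tumors. No marker in the count tables was at 0 throughout livers or tumors.

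Genes that work with annexins were taken from lists of partners and pathways. In all tumors against livers, 1 of 6 S100 and EF-hand partners rose, as did 2 of 6 genes of plasminogen activation, 2 of 8 of membrane repair, and 3 of 9 tested of phosphatidylserine exposure and engulfment, and 0 fell in any of these lists, where 6.77% of all genes rose and 3.91% fell. Of formyl peptide receptors, 0 of 2 tested changed. Of the unlisted annexin genes, Anxa8 was at most 0.966 CPM and Anxa10 at most 0.143 CPM in any library, and neither passed the filter on low counts in this comparison.

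Among S100 proteins, which bind the tails of annexins as small calcium sensors, S100a11, the partner of Anxa1, rose from 1.97 to 8.09 CPM in livers to 12.3 to 30.2 CPM in tumors (log2 fold change 2.14 ± 0.36, adjusted p = 0.00353). S100a10, whose protein forms a tight complex with that of Anxa2, is named outside the rule for partner genes, after its values were seen. It held 58.0 to 161 CPM in livers, 265 and 625 CPM in the Ctnnb1-mutated tumors, and 84.7 to 141 CPM in the other 4 tumors. Between these tumor classes, 2 of 6 S100 and EF-hand partners passed as higher and 0 as lower, against 6.99% and 5.68% of all genes. S100a10 did not pass in all tumors against livers (0.79 ± 0.49, adjusted p = 0.332) and was higher in Ctnnb1-mutated than in other tumors by 2.11 ± 0.40 (adjusted p = 0.00967). Anxa2, in contrast, exceeded livers in all 6 tumors.

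Among plasminogen genes, Plau (the activator urokinase) and Plaur (its receptor) rose, with log2 fold changes of 1.68 ± 0.50 (adjusted p = 0.0496) and 1.96 ± 0.41 (adjusted p = 0.00915). Plat, the tissue-type activator, is also named after its values were seen. It held 0 to 8.58 CPM in livers, 53.5 and 67.9 CPM in Ctnnb1-mutated tumors, and 3.49 to 8.24 CPM in the others. Between these classes, 0 of 6 genes of this list passed as higher and 1 as lower, against 6.99% and 5.68% of all genes. For all tumors against livers, the log2 fold change of Plat was 3.77 ± 1.18 (adjusted p = 0.0583). Plg, the plasminogen gene that hepatocytes express, was 1699 to 2841 CPM in livers and 761 to 2294 CPM in tumors (-0.59 ± 0.33, adjusted p = 0.285). Among genes of membrane repair, Ahnak, a giant scaffold that binds S100a10 and Anxa2, rose by 1.06 ± 0.28 (adjusted p = 0.0288) and Ehd2, a membrane-bending ATPase of caveolae, by 1.78 ± 0.48 (adjusted p = 0.0328) on the log2 scale. Each of these genes that rose was higher in the tumor of 6 of 6 mice, as 11% of all genes were. Since they were picked for passing in the same libraries, that pattern adds no separate support.

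Among genes that handle phosphatidylserine, the lipid that Anxa5 binds, the scramblase genes Plscr1 (1.69 ± 0.17, adjusted p = 0.000299) and Ano6 (1.39 ± 0.36, adjusted p = 0.0260) rose. Mfge8, a bridge between exposed phosphatidylserine and phagocytes, rose by 3.48 ± 0.50 on the log2 scale (adjusted p = 0.00158), from 5.76 to 18.1 CPM in livers to 25.9 to 310 CPM in tumors. Mfge8 was lower in Ctnnb1-mutated than in other tumors (log2 fold change -1.90 ± 0.52, adjusted p = 0.0380). Plscr1 and Mfge8, like Anxa5, had no tumor within the range of the livers.

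**Figure D5:**
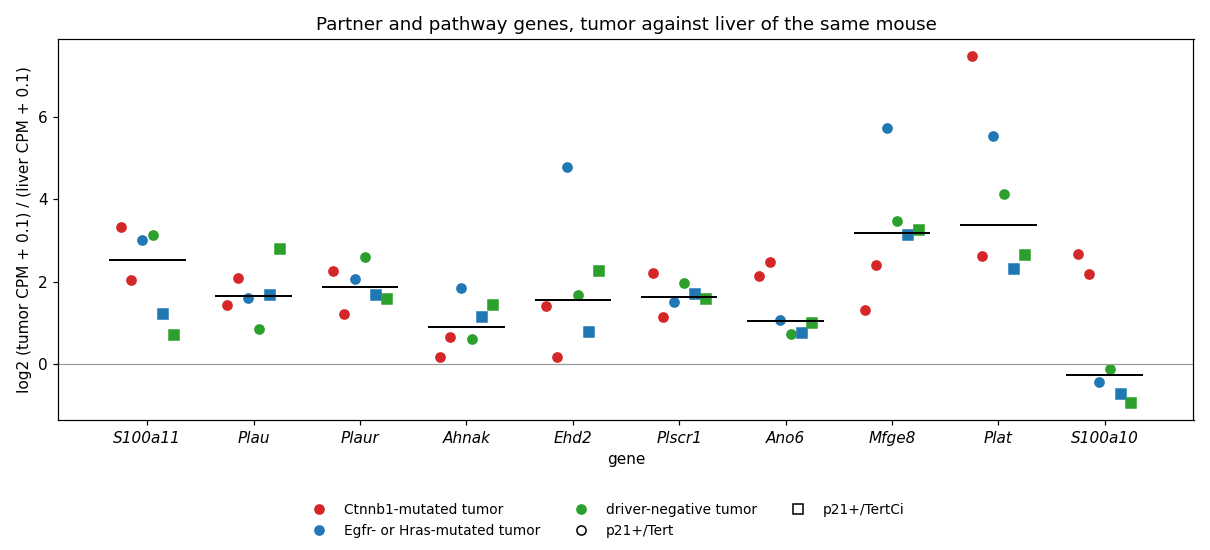
Log2 ratio of tumor to liver CPM in the same mouse (0.1 CPM added to each) for partner and pathway genes, colored by driver class, with lines at the medians. The 8 genes from S100a11 to Mfge8, picked because they passed in these libraries, are above 0 in all 6 mice, as is Plat. S100a10 is above 0 in the Ctnnb1-mutated tumors and below 0 in the other 4.

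The genes whose log2 CPM was most like that of each annexin that rose were listed over the 12 libraries, which share the contrast of tumor and liver. For Anxa2 they were Arhgef2 (Pearson r = 0.96), Atf3 (0.95), and Klf6 (0.95). For Anxa4 they were Adgrg1 (0.96), Il1rn (0.95), and B4galt6 (0.94). Those of Anxa5 were Smc2 (0.95), Arhgap11a (0.91), and Tmem43 (0.91), and those of Anxa13 were 1810010H24Rik (0.95), Rnf128 (0.91), and Pqlc2 (0.91). No gene was shared by these sets of 3.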

How the data were processed

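RNA-seq libraries from 6 livers and 6 liver tumors were used. The authors sequenced poly(A) RNA as 150-base read pairs, aligned reads with Subread to mm10 with mCherry added, and counted them with featureCounts 1.6.4. The deposited values are raw counts per gene symbol, without normalization. No term for sequencing run, which the authors used, was fitted, since the sources used here do not give it.

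Groups came from the labels, and driver classes from the study's mutations. The members, lists, and tests were chosen with earlier results of these data known. Genes kept by filterByExpr were tested with edgeR 4.0.16 (TMM scaling, quasi-likelihood F test, Benjamini-Hochberg, threshold 0.05) in R 4.3.3. Comparisons within a genotype and between tumors used all 12 libraries in 1 model. SE is the log2 fold change divided by the square root of F, and approximate 95% intervals are 1.96 SE. CPM used TMM-scaled library sizes, log2 CPM a prior count of 2, and CPM per kb the GENCODE exon length. Named genes were all members, list genes that passed in tumors against livers, and the 3 genes most correlated with each annexin that passed. The alternatives were DESeq2 1.42.0, RLE size factors, no filter beyond 1 count, a block for each mouse, only the libraries compared, and each library left out. The fits were tested on simulated counts with 200 changed genes.

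Same-numbered libraries come from 1 animal, so the numbers pair them. As a check, deviations from group means had r between liver and tumor of 0.386 for T-HCA992, 0.129 for T-HCC662, 0.0457 for T-HCC663, and 0.0117 for T-HCC941 (0.51 in both p21+/TertCi mice, where 2 libraries per group make the deviations mirror each other, so that this value is no check). However, T-HCC663 had a higher r with the liver of T-HCC941 (0.139), and T-HCC941 had a higher r with the liver of T-HCC663 (0.0371). For these tumors the check does not single out their own liver, and the pairing rests on the numbers. Pairs of replicates differed beyond sampling noise. The main tests fitted no term for mouse and treated the liver and tumor of 1 animal as independent. Their p-values measure the spread between libraries within groups, estimated over all 12 libraries and not over the compared arms alone. The result of 1 marker gene is not reported here.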

Additional observations from a re-analysis of the deposited data

Results flagged for a closer look

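In 40 groups of annexin values (10 genes in livers, tumors, p21+/Tert livers, and p21+/Tert tumors), 3 held a library far from the rest by Dixon's criterion, and chance alone flags about 1 group in 20. Anxa3 in the liver of TCi-HCC981 was 13.2 CPM, and the next highest liver was 4.9 CPM. The same liver held 1881 CPM of macrophage or Kupffer cell markers, against 175 to 458 CPM in the other 5 livers. It also had the highest cholangiocyte, stellate cell or fibroblast, and T cell sums of the livers. The part of these cell types in the value was not tested. Anxa7 in T-HCC662 was 299 CPM, and the next highest tumor was 147 CPM. Anxa13 in T-HCC941 was 64.6 CPM, and the next highest p21+/Tert tumor was 3.86 CPM.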

How the results depend on the processing

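Anxa2, Anxa4, and Anxa5 passed in tumors against livers under every alternative run, and Anxa2 did so in p21+/Tert mice as well. The number of annexins that passed was 3 to 5 in tumors against livers with 1 library left out, 1 to 3 in p21+/Tert mice (1 without the liver of T-HCC662, the liver of T-HCC663, or the tumor T-HCA992), and 0 to 1 in Ctnnb1-mutated against other tumors. Where an arm was left with 1 library, the spread came from the other groups, and the lone library is assumed to vary like them. DESeq2 passed 1 annexin in p21+/TertCi mice (Anxa4) and 3 in Ctnnb1-mutated against other tumors (Anxa4, Anxa11, and Anxa13). The pairing by mouse changed no other call of an annexin than those given for Anxa1, Anxa3, Anxa4, Anxa5, and Anxa13.

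Over all genes, DESeq2 called 2407 in tumors against livers (1476 in edgeR), 2109 in p21+/Tert mice (986), 375 in p21+/TertCi mice, 3266 in Ctnnb1-mutated against other tumors (1924), 10, 42, and 123 for the difference between genotypes, livers, and Egfr or Hras class, and 161 for driver-matched tumors (1). In tumors against livers, the block over 6 mice called 2202 genes (1194 higher and 1008 lower, against 936 and 540) and that over 5 mice 1860. The block over 5 mice called 649 genes in p21+/Tert mice, and for Ctnnb1 class it called 77, the block over 6 mice 441, and only the libraries compared 839. The block called 0 for driver-matched tumors, as did the fit of only those libraries. Leaving out 1 library gave 863 (without the liver of T-HCC662) to 1988 (without T-HCC662) genes in tumors against livers, 240 to 1192 (the same libraries) in p21+/Tert mice, and 466 (without T-HCC662) to 1803 (without T-HCC941) for Ctnnb1 class. For comparisons between tumors, a block turns the value into a difference of tumors relative to their own livers.

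The log2 fold changes that changed sign were not called in either fit, and the cause was not tested. For tumors and livers, with the block over 5 mice Anxa7 was -0.049. Without 1 library, Anxa7 ranged from -0.054 to 0.34 and Anxa9 ranged from -0.086 to 0.42. For p21+/Tert tumors and livers, with the block over 5 mice Anxa7 was -0.098. Without 1 library, Anxa7 ranged from -0.11 to 0.51. For p21+/TertCi tumors and livers, with the block over 6 mice Anxa7 was -0.0022, and with the block over 5 mice Anxa7 was -0.0032. Without 1 library, Anxa6 ranged from -0.31 to 0.29, Anxa7 ranged from -0.13 to 0.12, Anxa3 ranged from -0.27 to 2.09 and Anxa11 ranged from -0.64 to 0.70. For genotypes in the change from liver to tumor, with the block over 5 mice Anxa1 was -0.034 and Anxa7 was 0.095. Without 1 library, Anxa1 ranged from -0.67 to 1.15, Anxa11 ranged from -0.014 to 1.46, Anxa3 ranged from -1.36 to 0.99 and Anxa7 ranged from -0.49 to 0.11. Likewise, Anxa13 ranged from -0.071 to 5.09. For livers of the genotypes, with RLE size factors Anxa7 was -0.0018, and with DESeq2 Anxa7 was -0.0018. There, with no filter Anxa7 was -0.014. Without 1 library, Anxa9 ranged from -0.46 to 0.18, Anxa7 ranged from -0.10 to 0.076, Anxa11 ranged from -0.91 to 0.43 and Anxa1 ranged from -0.73 to 0.83. Likewise, Anxa3 ranged from -0.53 to 1.82, Anxa5 ranged from -0.33 to 0.57 and Anxa6 ranged from -0.47 to 0.14. For Ctnnb1-mutated and other tumors, with RLE size factors Anxa5 was -0.0015, and with DESeq2 Anxa5 was -0.0014. There, with the block over 6 mice Anxa6 was -0.051, and with the block over 5 mice Anxa6 was -0.42 and Anxa7 was -0.42. Without 1 library, Anxa3 ranged from -0.67 to 0.083, Anxa5 ranged from -0.21 to 0.31, Anxa6 ranged from -0.42 to 0.35 and Anxa7 ranged from -0.30 to 1.20. For Egfr- or Hras-mutated and driver-negative tumors, with RLE size factors Anxa3 was 0.022, and with DESeq2 Anxa3 was 0.022. There, with no filter Anxa3 was 0.017, and with the block over 6 mice Anxa2 was 0.28, Anxa4 was -0.23, Anxa6 was -0.23, Anxa7 was -0.11, Anxa9 was -0.53 and Anxa11 was 0.25. There, with the block over 5 mice Anxa2 was 0.27, Anxa4 was -0.24, Anxa6 was -0.23, Anxa7 was -0.11, Anxa9 was -0.53 and Anxa11 was 0.25, and with only the libraries compared Anxa3 was 0.030. Without 1 library, Anxa3 ranged from -0.57 to 0.39, Anxa7 ranged from -0.11 to 0.22, Anxa9 ranged from -0.32 to 1.03 and Anxa4 ranged from -0.29 to 0.27. Likewise, Anxa5 ranged from -0.96 to 0.087, Anxa6 ranged from -0.44 to 0.34 and Anxa1 ranged from -0.0046 to 1.09. For driver-matched tumors of the genotypes, with the block over 6 mice Anxa3 was -0.52, Anxa4 was -0.013, Anxa7 was -0.053 and Anxa11 was 0.25, and with the block over 5 mice Anxa3 was -0.52, Anxa4 was -0.015, Anxa7 was -0.055 and Anxa11 was 0.25. Without 1 library, Anxa9 ranged from -1.04 to 0.27, Anxa1 ranged from -0.94 to 0.42, Anxa7 ranged from -0.14 to 0.21 and Anxa11 ranged from -0.87 to 0.91. Likewise, Anxa13 ranged from -1.56 to 5.30.

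As limits, 2 libraries per class or per p21+/TertCi arm leave intervals wide, Anxa13 rests on few reads in livers, and sequencing run was not modelled. Genotype and Ctnnb1 class share libraries, as do all comparisons that use the same livers.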
